A study of Mus musculus with 4 samples.

Results

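The Notch pathway is described here through 9 genes, chosen by symbol: the receptors Notch1 and Notch2, the protease Adam10, the nuclear factor Rbpj, the coactivators Maml1, Maml2 and Maml3, and the target genes Hes1 and Dtx1. All 9 had a row in each of the 4 deposited tables, out of 24411 gene symbols. RNA was sequenced from cells sorted by flow cytometry as positive for B220, which marks B lineage cells, from the marrow of mouse tibia and femur. The series sets 2 libraries labelled Arid5b overexpression against 2 libraries labelled wildtype (1 of these labels is misspelled); strain, age, treatment, the promoter driving Arid5b and whether each library is 1 mouse are not given in the sources used here. The labels do not say which mice the libraries come from, and p-values measure the spread between these libraries. The sex-linked reads given below differ within the wildtype pair, so that pair is not 1 animal sequenced again.

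Notch receptors are cut after ligand binding, first by ADAM10 at the cell surface and then by gamma-secretase within the membrane. The released intracellular part enters the nucleus, where it joins the DNA-binding protein RBPJ and a Mastermind-like coactivator at target genes such as Hes1. In B cells NOTCH2 is known for directing the marginal zone fate, whereas NOTCH1 is known for driving T cell commitment of early progenitors. Dtx1 encodes Deltex1, a ubiquitin ligase that is both a target and a regulator of Notch signalling.

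The 4 libraries held between 14196665 and 20356404 reads assigned to genes, so counting error is small for all but the lowest members. Arid5b itself, the check of the labels, had 58127 and 2770 reads in overexpression-labelled libraries 1 and 2, against 2993 and 2465 reads in wildtype libraries 1 and 2. Its level in overexpression-labelled library 2 was thus no higher than in wildtype (log2 difference -0.22, SE 0.15, limma adjusted p = 0.493), which goes against that label. Overexpression-labelled library 1 also stood apart in its marker genes. Summed over 6 pro-B and pre-B markers, it had 3657 CPM (reads scaled to the library total), against 2.55 CPM in overexpression-labelled library 2 and 8.74 and 3.66 CPM in wildtype. The 6 mature B cell markers summed to 487 CPM there, against 18006 CPM in overexpression-labelled library 2 and 19133 and 19849 CPM in wildtype. B lineage markers were present in every library, at 3079 and 4732 CPM in the overexpression-labelled libraries and 4402 and 4887 CPM in wildtype. Wildtype library 1 had 24 reads of the X-inactivation transcript Xist and 3260 of the Y-linked Ddx3y; the other 3 had 68540 or more and at most 1. Each overexpression-labelled library is therefore described separately as well as in its group.

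**Figure D1:**
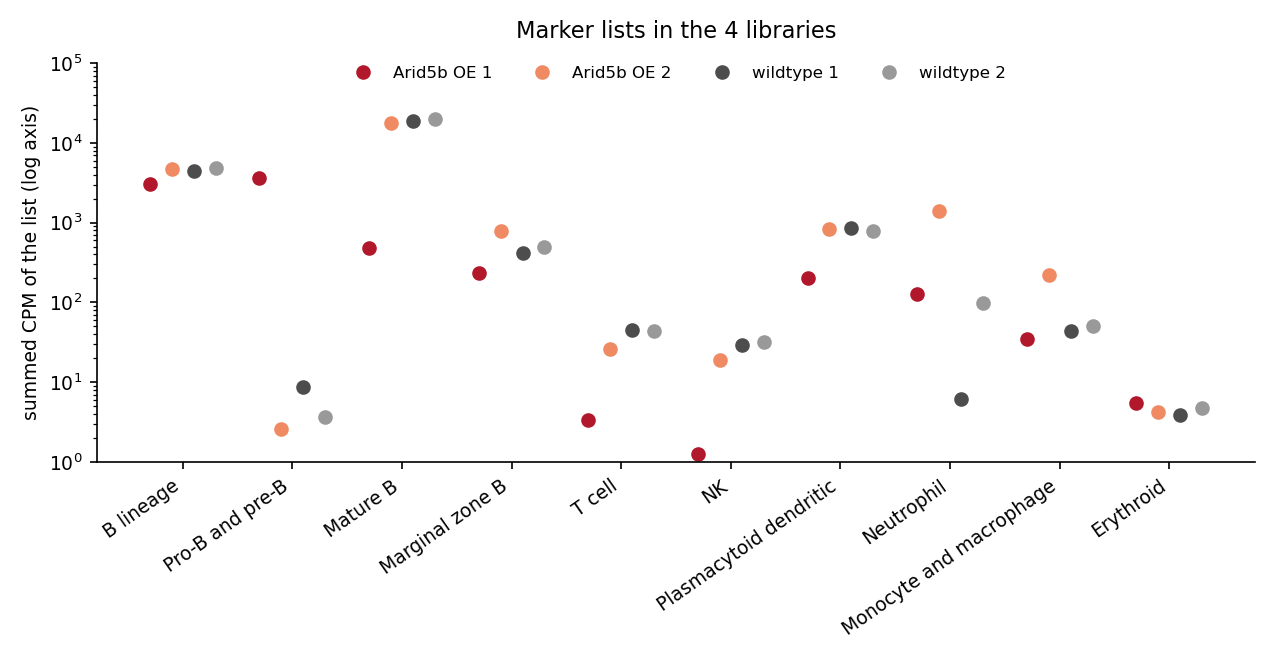
Summed CPM (log axis) of 10 marker lists in the 4 libraries, 1 point per library. Overexpression-labelled library 1 is highest in pro-B and pre-B markers (3657 CPM) and lowest in mature B cell markers (487 CPM), and overexpression-labelled library 2 is highest in neutrophil markers (1422 CPM).

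The DNA just before the start of a gene is shown for 4 members, because Notch2 and Dtx1 fell together in the data below and because Rbpj and Maml3 carry the core letters of the RBPJ recognition motif. Each line gives the 250 bases before the RefSeq start of the gene on build GRCm38.p6, 5′ to 3′ on the strand of the gene, with TGGGAA (or TTCCCA, the same letters on the opposite strand) in capitals.
Notch2, chr3:98013288-98013537, + strand: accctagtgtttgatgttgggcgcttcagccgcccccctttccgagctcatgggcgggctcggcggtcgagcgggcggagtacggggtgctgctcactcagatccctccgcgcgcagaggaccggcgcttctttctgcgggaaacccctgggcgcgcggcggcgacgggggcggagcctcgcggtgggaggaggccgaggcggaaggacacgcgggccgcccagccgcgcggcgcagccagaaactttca
Dtx1, chr5:120711670-120711919, - strand: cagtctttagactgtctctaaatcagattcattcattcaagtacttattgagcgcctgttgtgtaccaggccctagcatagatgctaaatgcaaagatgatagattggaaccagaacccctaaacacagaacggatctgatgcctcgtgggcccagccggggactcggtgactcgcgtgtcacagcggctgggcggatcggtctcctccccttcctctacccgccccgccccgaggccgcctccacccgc
Rbpj, chr5:53590096-53590345, + strand: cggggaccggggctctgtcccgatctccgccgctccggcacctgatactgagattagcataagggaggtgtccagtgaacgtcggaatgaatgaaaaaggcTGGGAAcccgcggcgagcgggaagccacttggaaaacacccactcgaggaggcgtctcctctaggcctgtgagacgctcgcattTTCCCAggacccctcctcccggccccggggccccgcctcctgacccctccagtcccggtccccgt
Maml3, chr3:52105007-52105256, - strand: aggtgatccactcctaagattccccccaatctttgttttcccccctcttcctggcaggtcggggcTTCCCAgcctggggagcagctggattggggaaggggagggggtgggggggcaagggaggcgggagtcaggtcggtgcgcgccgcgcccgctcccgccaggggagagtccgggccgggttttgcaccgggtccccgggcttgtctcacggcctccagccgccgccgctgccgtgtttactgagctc
Of the 9 members, 8 had a window in the RefSeq table (all but Hes1), with 2 windows each for Rbpj and Maml2. TGGGAA on either strand, searched from 250 bases before to 50 after the start, was found in 3 of the 8 members (Rbpj, Maml2 and Maml3). It lay in 4 of their 10 windows, and in 25.6% of all 32851 windows of that length. In Maml2 it lay in the second window only. By the first window of each gene, Rbpj and Maml3 held it, and 25.5% of all genes did. The longer GTGGGAA, which contains it, was found in 0 of the 8 members and in 6.38% of all windows. In Rbpj the letters began 149 bases before the start on the strand of the gene and lay from 65 to 60 bases before it on the opposite strand. The Notch2 and Dtx1 windows held neither form. These matches describe letters only and say nothing of binding.

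Per length of transcript, Notch2 was the highest member in wildtype B cells and Maml3 the lowest. With RPKM (CPM per kilobase of the merged exons of a gene, GENCODE vM21), Notch2 averaged 41.9 ± 4.05 in wildtype (SD, n = 2, as for the values that follow). Next came Dtx1 at 20.0 ± 0.205, Maml1 at 15.4 ± 1.81, Maml2 at 9.85 ± 0.884 and Adam10 at 8.69 ± 1.60. Rbpj stood at 6.04 ± 1.13, Hes1 at 5.12 ± 0.686, Notch1 at 2.56 ± 0.128 and Maml3 at 1.72 ± 0.326. Among neighbours in this order, the values of the 2 wildtype libraries overlapped for Maml2 and Adam10 and for Rbpj and Hes1, and for no other pair. Overexpression-labelled library 2 kept Notch2 first, at 42.0 RPKM, and Maml3 last, at 0.351 RPKM. The order differed in overexpression-labelled library 1, where Adam10 led at 26.6 RPKM, Notch2 stood at 3.82 RPKM and Dtx1 was last at 0.236 RPKM.

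**Figure D2:**
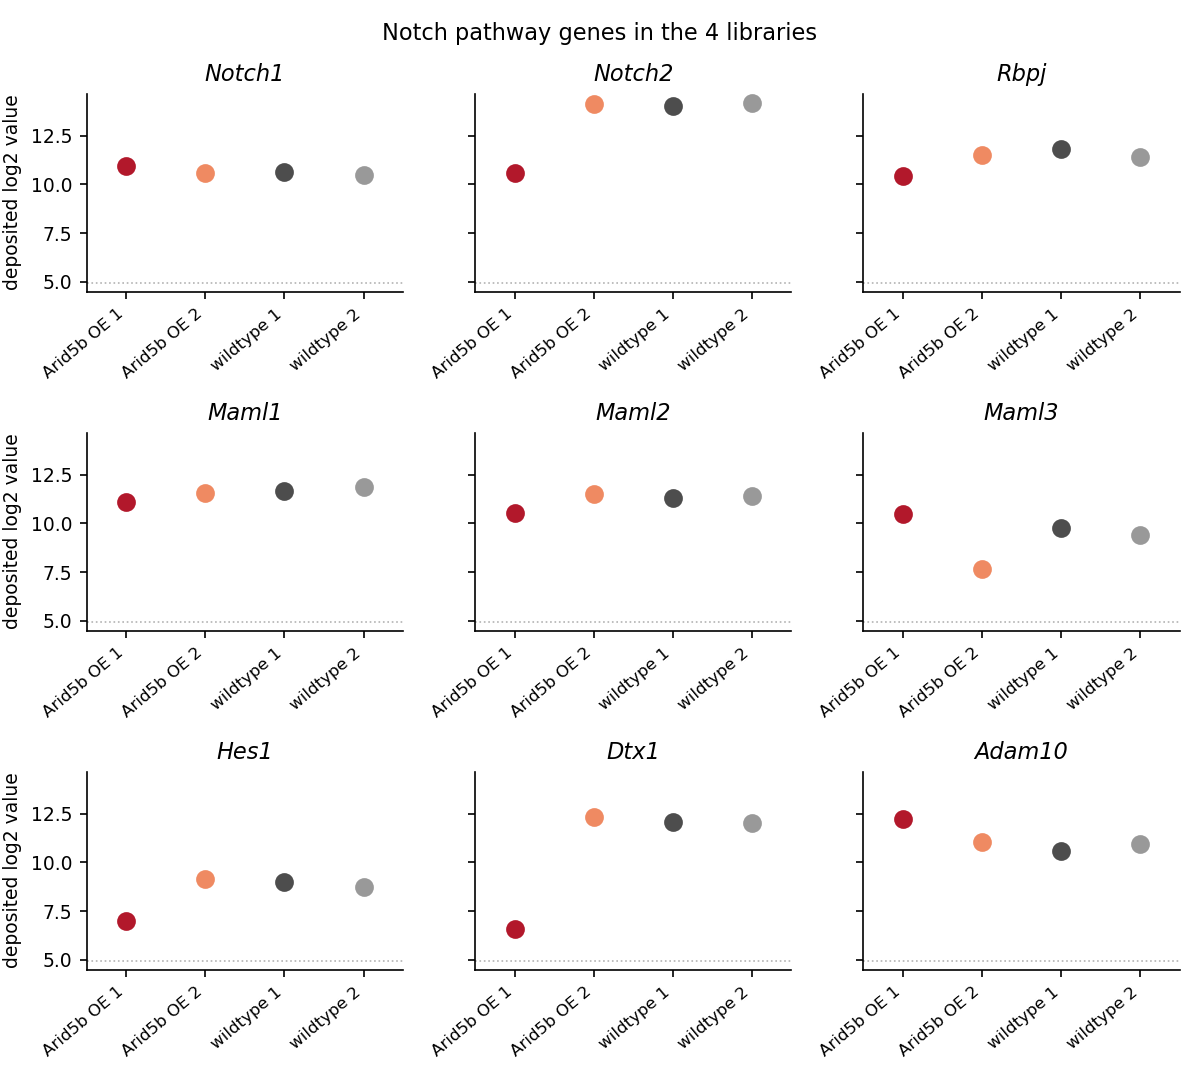
Deposited log2 value of each of the 9 genes (1 panel per gene, shared vertical axis) in the 4 libraries, 1 point per library, with the value of genes without reads (4.949) as a dotted line. Overexpression-labelled library 1 lies below the other 3 for Notch2, Rbpj, Maml1, Maml2, Hes1 and Dtx1 and above them for Adam10, Maml3 and Notch1. Overexpression-labelled library 2 is lowest for Maml3.

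The first comparison, of the overexpression-labelled group with wildtype, is the one the series was designed for. No member passed the threshold, an adjusted p of 0.05 in limma, a linear model fitted across all genes. Of 12617 genes tested 0 (0%) were called, and 280 had an unadjusted p under 0.05; limma-voom on recovered reads also called 0, with 186 under 0.05. The spread within the overexpression-labelled group was wide. Notch2 averaged 12.37 ± 2.52 on the deposited log2 scale in the overexpression-labelled group and 14.13 ± 0.12 in wildtype (SD, n = 2 each; difference -1.76, SE 1.22, limma adjusted p = 0.726). Dtx1 averaged 9.46 ± 4.06 in the overexpression-labelled group and 12.05 ± 0.01 in wildtype (SD, n = 2 each; difference -2.59, SE 1.95, limma adjusted p = 0.726). For both genes the 2 overexpression-labelled libraries lay on opposite sides of the wildtype mean, and without overexpression-labelled library 1 the differences were 0.02 and 0.28. The median difference of the 9 members was -0.495, and that of all genes tested was -0.0776. Only Adam10, higher, and Maml1, lower, had groups that did not overlap, which is 2 of 9 members where 42.6% of all genes tested had such groups (19.6% higher and 23% lower). Adam10 differed by 0.86 (SE 0.48, limma adjusted p = 0.726) and Maml1 by -0.41 (SE 0.29, limma adjusted p = 0.726).

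Set alone against the wildtype pair, overexpression-labelled library 1 had lower Notch2, Rbpj, Maml1, Maml2, Hes1 and Dtx1 and higher Adam10 and Maml3. That is 6 members called lower and 2 called higher of 9, in a comparison that called 61.2% of all genes tested (34.4% lower and 26.8% higher). The median difference was -0.807 over the members and -0.151 over all genes. The filter asked for reads in 2 or more libraries, so genes with reads in library 1 alone were not tested. Igll1, with 36095 reads there and 0 in each other library, is an example. Genes low in library 1 alone could be tested, so the shares and medians of all genes leave out the former kind only. Since the spread can come only from the wildtype libraries, overexpression-labelled library 1 is taken to vary as much as they do, and the test is of this library rather than of the genotype. With library totals without Rn45s, the ribosomal RNA precursor, in place of the authors' size factors, the median of all genes was 0.0254. The direction of each of the 9 members was kept. That setting also took log2 of normalised reads plus 0.5 in place of the deposited values. On that scale with the authors' size factors the median was -0.173. With no filter on low counts limma called 0 genes (8162 had an unadjusted p under 0.05) and these 8 calls were lost, at adjusted p-values from 0.0543 to 0.136. In bulk RNA, fewer cells of a type and less RNA per cell cannot be told apart.

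Of the receptors, Notch2 fell and Notch1 was not called. Notch2 (ENSMUSG00000027878.11, chromosome 3, 98013527 to 98150361) had 1478 normalised reads (reads divided by the authors' size factor of each library) in overexpression-labelled library 1 and 18149.6 in overexpression-labelled library 2, against 16901 and 18946 in wildtype libraries 1 and 2. Only overexpression-labelled library 1 was low, 12.1-fold below the wildtype mean (log2 difference -3.54, SE 0.13, limma adjusted p = 1.45e-10). A larger change in either direction was found in 3.13% of all genes. Notch1 (ENSMUSG00000026923.15, chromosome 2, 26457903 to 26516663) had 1883 and 1463 normalised reads in the overexpression-labelled libraries, against 1514 and 1379 in wildtype. These values lay close together, and the difference of overexpression-labelled library 1 from wildtype was 0.37 (95% interval -0.03 to 0.76, limma adjusted p = 0.0958). With library totals without Rn45s it was 0.58 and was called (limma adjusted p = 0.0366). Per length, Notch2 was 1.04 times Notch1 in overexpression-labelled library 1, 16.4 times in overexpression-labelled library 2, and 14.7 and 18.1 times in wildtype. The receptors together came to 7.52 and 44.6 RPKM in the overexpression-labelled libraries, against 41.7 and 47.3 RPKM in wildtype, so that Notch2 made up 50.9% and 94.2% of the pair in the overexpression-labelled libraries and 93.6% and 94.8% in wildtype.

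**Figure D3:**
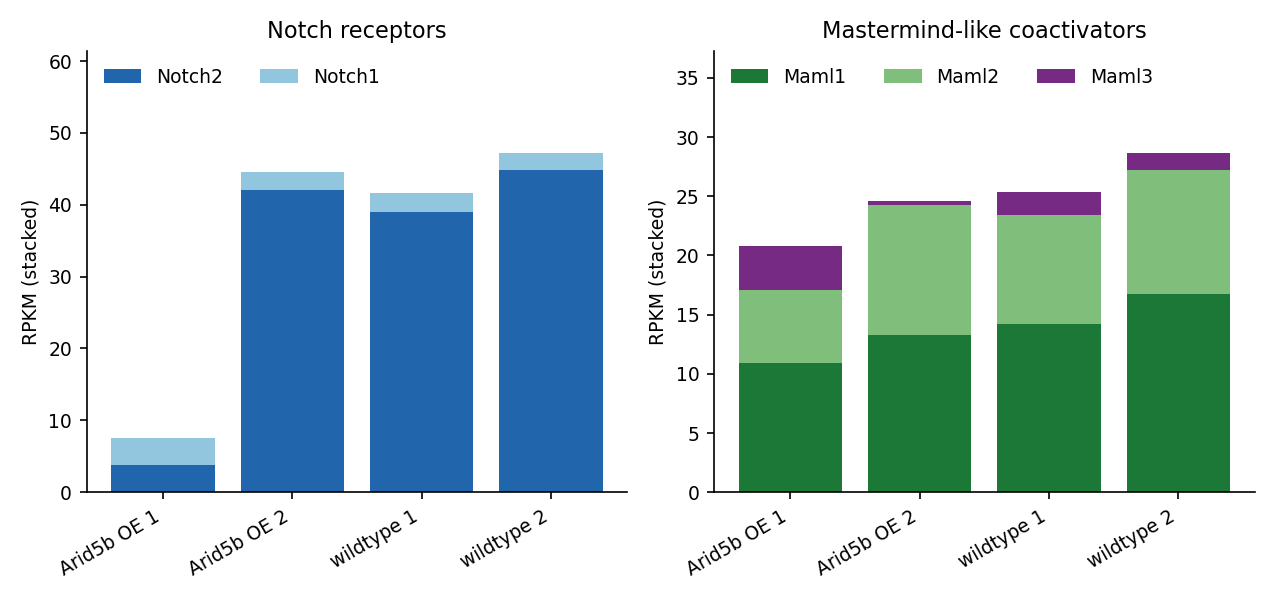
RPKM of the receptors Notch2 and Notch1 (left) and of Maml1, Maml2 and Maml3 (right) stacked for each of the 4 libraries. Overexpression-labelled library 1 has a receptor sum of 7.52 RPKM in nearly equal parts, against 41.7 to 47.3 RPKM in the other 3, and Maml3 forms 17.8% of its Mastermind-like RPKM.

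Adam10, whose product makes the first cut of the receptor, rose. Adam10 (ENSMUSG00000054693.14, chromosome 9, 70678997 to 70780229) had 4691 and 2048 normalised reads in the overexpression-labelled libraries, against 1490.2 and 1893 in wildtype libraries 1 and 2. Both overexpression-labelled libraries lay above both wildtype libraries, but only library 1 was called. It stood 2.77-fold above wildtype (log2 difference 1.45, SE 0.18, limma adjusted p = 1.44e-05), and overexpression-labelled library 2 differed by 0.28 (95% interval -0.14 to 0.70, limma adjusted p = 0.525).

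The nuclear factors were lower in overexpression-labelled library 1, apart from Maml3. Rbpj (ENSMUSG00000039191.12, chromosome 5, 53466152 to 53657362) had 1316 and 2902 normalised reads in the overexpression-labelled libraries, against 3502 and 2623 in wildtype. It was 2.33-fold lower in library 1 than in wildtype (log2 difference -1.17, SE 0.19, limma adjusted p = 0.000149). The annotation holds pseudogene copies of Rbpj, so part of its reads is uncertain. Exons of Notch1 overlap those of the opposite-strand genes 0610009E02Rik and Gm13568, and exons of Maml1 those of Gm26542. On the same strand, exons of Notch2 overlap Gm42820 by up to 202 bases and exons of Maml2 overlap Gm22643 by up to 101. None of these overlapping genes has a row in the deposited tables. Whether the counting used strand is not given in the sources used here, so reads in these overlaps cannot be told apart. Maml1 (ENSMUSG00000050567.16, chromosome 11, 50255634 to 50292311) had 2169.6 and 2939.6 normalised reads in the overexpression-labelled libraries, against 3144 and 3629 in wildtype. Its fall in library 1 was 1.56-fold (log2 difference -0.62, SE 0.16, limma adjusted p = 0.00466). Maml2 (ENSMUSG00000031925.17, chromosome 9, 13297957 to 13709388) had 1445 and 2912 normalised reads in the overexpression-labelled libraries, against 2443 and 2711 in wildtype. It fell 1.78-fold in library 1 (log2 difference -0.81, SE 0.17, limma adjusted p = 0.00114). These falls are modest beside those of other genes: changes larger than that of Maml1 were found in 63.0% of all genes, and larger than that of Maml2 in 53.6%.

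Maml3 was the member on which the 2 overexpression-labelled libraries lay on opposite sides of wildtype, each past the threshold. Maml3 (ENSMUSG00000061143.15, chromosome 3, 51685907 to 52105076) had 593 and 75 reads in overexpression-labelled libraries 1 and 2, against 411 and 221 in wildtype libraries 1 and 2. Divided by size factors these were 1391 and 148 normalised reads in the overexpression-labelled libraries, against 819 and 611 in wildtype. Library 1 was 1.95-fold higher than wildtype (log2 difference 0.92, SE 0.23, limma adjusted p = 0.00421) and library 2 was 4.84-fold lower (log2 difference -1.91, SE 0.28, limma adjusted p = 0.00621). In overexpression-labelled library 2 that was the single member called, 1 of 9, where 1.66% of all genes were called (0.769% higher and 0.888% lower), and a larger change was found in 0.317% of genes. With library totals without Rn45s, 0 genes were called in that library and Maml3 differed by -2.26 (limma adjusted p = 0.102); 1756 genes then had an unadjusted p under 0.05. With no filter on low counts the call was lost as well (limma adjusted p = 0.3). The setting with library totals also took log2 of normalised reads plus 0.5. On that scale with the authors' size factors Maml3 differed by -2.26 in library 2 as well. Maml3 made up 17.8% and 1.43% of the RPKM of the 3 Mastermind-like genes in the overexpression-labelled libraries, and 7.68% and 5.17% in wildtype. Maml1 made up between 52.7% and 58.3% in the 4 libraries.

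Markers of other cell types also differed among the libraries. The 6 T cell markers in the tables summed to 3.34 and 26.3 CPM in the overexpression-labelled libraries and to 44.7 and 43.7 CPM in wildtype. The 6 NK cell markers summed to 1.24 and 19.0 CPM in the overexpression-labelled libraries, with 3 of the 6 at 0 in library 1, and to 29.2 and 31.7 CPM in wildtype. The 8 neutrophil markers summed to 127 and 1422 CPM in the overexpression-labelled libraries and to 6.20 and 98.8 CPM in wildtype, where 3 and 1 of the 8 were at 0. The 6 monocyte and macrophage markers summed to 34.7 and 218 CPM in the overexpression-labelled libraries, with 1 of the 6 at 0 in library 1, and to 43.6 and 51.0 CPM in wildtype. Of these sums, Lyz2 was at 24.9 and 199 CPM in the overexpression-labelled libraries and at 17.0 and 33.6 CPM in wildtype. In library 2 Csf1r, Ly6c2, Ccr2 and Adgre1 were not above both wildtype libraries, whereas Cd14 was. The 7 plasmacytoid dendritic cell markers summed to 203 and 838 CPM in the overexpression-labelled libraries, with 1 of the 7 at 0 in library 1, and to 854 and 790.0 CPM in wildtype. Most of that sum in each library came from Tcf4, Irf8 and Ly6d, which are not specific to these cells. Siglech was at 0.262 and 25.4 CPM in the overexpression-labelled libraries and at 56.0 and 22.6 CPM in wildtype. The part of these cells in the Maml3 values, and in those of the other members, was not tested.

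Both target genes fell in overexpression-labelled library 1. Folds here and elsewhere are of normalised reads, while log2 differences are of deposited values, which understate changes at few reads. Hes1 (ENSMUSG00000022528.8, chromosome 16, 30064384 to 30067796), a transcriptional repressor, had 31 and 256 reads in the overexpression-labelled libraries, against 230 and 134 in wildtype. As normalised reads these were 72.7 and 504 in the overexpression-labelled libraries, against 458 and 370.4 in wildtype. Library 1 alone was low, 5.70-fold below wildtype (log2 difference -1.89, SE 0.33, limma adjusted p = 0.000242). Dtx1 (ENSMUSG00000029603.15, chromosome 5, 120680202 to 120711927) had 19 and 2589 reads in the overexpression-labelled libraries, against 2105 and 1505 in wildtype. The normalised reads were 44.6 and 5098 in the overexpression-labelled libraries, against 4194 and 4159.6 in wildtype. Overexpression-labelled library 1 was 93.7-fold lower than wildtype (log2 difference -5.46, SE 0.20, limma adjusted p = 1.03e-10), and 0.436% of all genes changed more. In overexpression-labelled library 2 Hes1 differed from wildtype by 0.26 (95% interval -0.34 to 0.85) and Dtx1 by 0.28 (95% interval -0.03 to 0.60), and neither was called (limma adjusted p = 0.696 and 0.366).

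**Figure D4:**
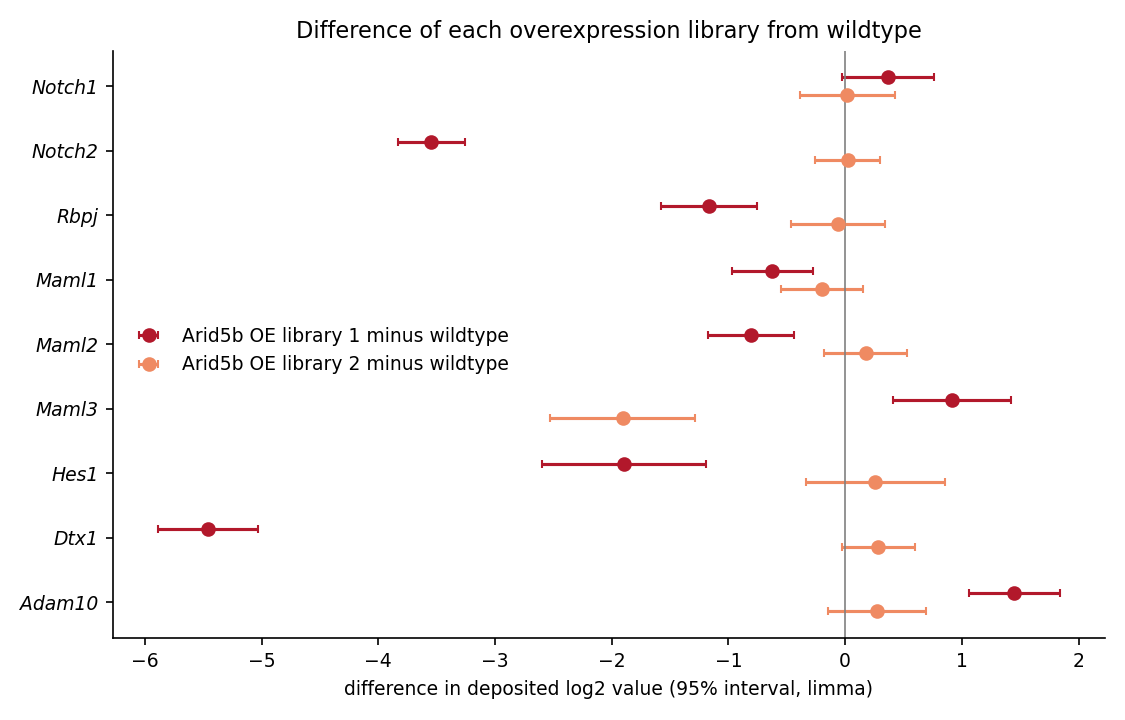
Difference in deposited log2 value of each overexpression-labelled library from the mean of the 2 wildtype libraries for the 9 genes, with 95% intervals from limma, library 1 in dark red above library 2 in orange. Dtx1 (-5.46) and Notch2 (-3.54) lie farthest from 0 in library 1, and in library 2 the interval of Maml3 (-1.91) alone leaves out 0.

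The 2 differences from wildtype share the wildtype libraries, so the overexpression-labelled libraries were also set directly against each other, with the spread taken from the wildtype pair. Of 9 members 5 were lower and 2 higher in library 1 than in library 2, where 52.6% of all genes were called (22.4% higher and 30.1% lower). Dtx1 (-5.74, SE 0.20), Notch2 (-3.56, SE 0.15), Hes1 (-2.15, SE 0.36), Rbpj (-1.11, SE 0.22) and Maml2 (-0.98, SE 0.19) were lower in library 1. Maml3 (2.83, SE 0.30) and Adam10 (1.17, SE 0.21) were higher. Notch1 differed by 0.35 (95% interval -0.11 to 0.81) and Maml1 by -0.43 (95% interval -0.83 to -0.02), and neither passed after adjustment (limma adjusted p = 0.18 and 0.0703).

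Markers of B cell stage differed along with these genes. Genes linked to marginal zone B cells, the fate that NOTCH2 is known to direct, were mixed in overexpression-labelled library 1. Cr2, the complement receptor CD21, had 588 and 11361 reads in the overexpression-labelled libraries, against 4968 and 4407 in wildtype. S1pr3, a sphingosine-1-phosphate receptor, had 13 and 1627 reads in the overexpression-labelled libraries and 864 and 707 in wildtype. The tetraspanin Cd9 had 11 and 822 reads in the overexpression-labelled libraries and 1218 and 680 in wildtype. The other 2 of the 5 genes on this list were higher in library 1. The antigen-presenting molecule Cd1d1 was at 29.4 and 13.0 CPM in the overexpression-labelled libraries and 11.7 and 11.8 CPM in wildtype, and Mzb1 was at 163 and 85.3 CPM in the overexpression-labelled libraries and 58.4 and 69.5 CPM in wildtype. The part of a different B cell stage in the Notch gene values of overexpression-labelled library 1 was not tested.

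Beyond the 9 members, 63 other genes of the pathway were listed by role, and 57 of them had enough reads to be tested. In overexpression-labelled library 1 against wildtype 16 rose, 19 fell and 22 were not called, so 61.4% were called, close to the 61.2% of all genes (median difference -0.226 for the list). In overexpression-labelled library 2 against wildtype 1 rose, 1 fell and 55 were not called, which is 3.51% where 1.66% of all genes were called. Of the ligands Jag2 rose (1.44) and Jag1 fell (-1.19) in library 1, at 63 and 8 reads there, while Dll1 and Dll4 were not called. Notch3 and Notch4, the other receptors, had 0 and 4 reads in library 1 and at most 28 in any library.

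Among genes that cut the receptor, 3 of 9 rose and 2 fell in overexpression-labelled library 1, which is 55.6% called where 61.2% of all genes were. The gamma-secretase subunit genes Aph1b (1.38), Aph1c (1.02) and Psenen (0.64) rose, and the convertase Furin (-1.49) and the sheddase Adam17 (-0.64) fell. Aph1b and Aph1c are close paralogs whose reads may be split. The Fringe glycosyltransferases, which change how receptors respond to ligands, divided: Lfng fell (-2.22), Mfng rose (1.40) and Rfng was not called (0.76). Lfng had 105 and 411 reads in the overexpression-labelled libraries, against 614 and 548 in wildtype.

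The largest falls in this wider list in overexpression-labelled library 1 were in genes for ubiquitin ligases. Outside the Deltex family, other genes of the list with a role in ubiquitination moved either way. Neurl1a differed from wildtype by -2.95, Fbxw7 by -1.25, Mib2 by -0.44, Itch by -0.11 and Mib1 by 0.74. Neurl3, a Neuralized family ligase, had 24 and 1492 reads in the overexpression-labelled libraries, against 2675 and 1725 in wildtype (log2 difference of library 1 from wildtype -5.54, SE 0.19, limma adjusted p = 6.74e-11). It was also the 1 listed gene that fell in overexpression-labelled library 2 (-0.77, SE 0.15, limma adjusted p = 0.0267). Dtx4 fell by 4.10 (limma adjusted p = 2.47e-07), with 3 and 574 reads in the overexpression-labelled libraries and 471 and 238 in wildtype. Dtx3 fell by 3.45 (limma adjusted p = 5.54e-06), with 0 and 138 reads in the overexpression-labelled libraries and 154 and 91 in wildtype. Within the Deltex family Dtx1, Dtx3 and Dtx4 thus fell in library 1, Dtx2 was not called (-0.46), and Dtx3l rose (2.71, SE 0.19, limma adjusted p = 6.98e-08), with 1980 and 384 reads in the overexpression-labelled libraries and 314 and 251 in wildtype.

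Nuclear partners and targets were mixed too. Of 13 corepressor genes 5 rose and 6 fell in overexpression-labelled library 1, and of 5 coactivator genes 3 rose and 1 fell. That is 84.6% and 80% called, where 61.2% of all genes were (26.8% higher and 34.4% lower). Ctbp2, a corepressor, had the largest rise among the tested genes of the list (2.81, SE 0.28, limma adjusted p = 1.72e-06), at 724 and 78 reads in the overexpression-labelled libraries and 106 and 64 in wildtype. Among the other targets on the list, Gata3 rose in library 1 (1.84, SE 0.37), and Cr2 (-2.94) and Myc (-0.67) fell. Gata3 had 183 and 15 reads in the overexpression-labelled libraries and 50 and 24 in wildtype. Myc was at 278 and 757 CPM in the overexpression-labelled libraries. In wildtype libraries 1 and 2 it was at 302 and 529 CPM, so library 1 was close to the lower of these. The repressors Hes5 (0.39) and Hey1 (0.11) and the receptor chain Il2ra (-0.04) were not called. Heyl, a related target on the list, had 38 and 2 reads in the overexpression-labelled libraries and 2 and 1 in wildtype. It was not tested, since only library 1 had enough reads for the filter. Nrarp, an inhibitor of the Notch complex that is itself a target, fell (-1.24, limma adjusted p = 0.0092). Cr2 was the 1 listed gene that rose in overexpression-labelled library 2 (1.02, SE 0.15, limma adjusted p = 0.00456), where Notch2 differed from wildtype by 0.02 (95% interval -0.26 to 0.30).

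**Figure D5:**
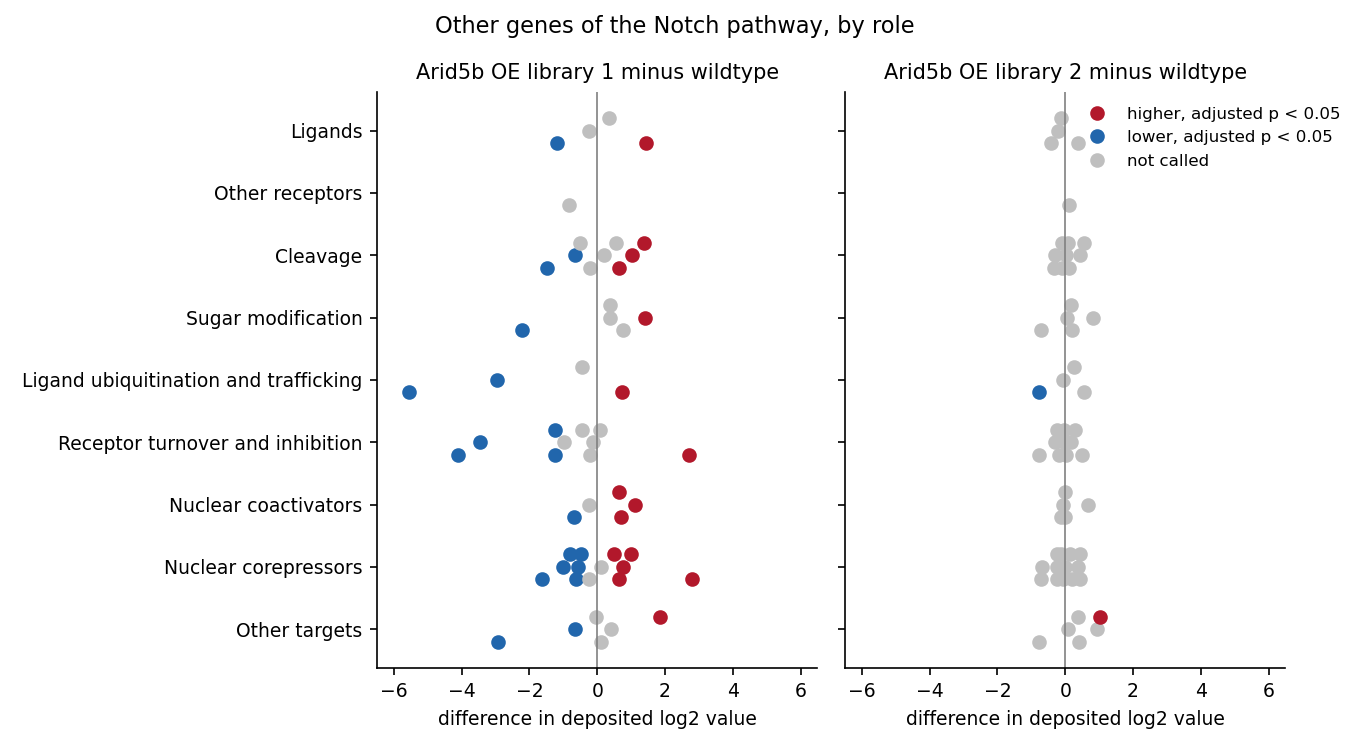
Difference in deposited log2 value from wildtype for the 57 tested genes of the wider Notch list, by role, in overexpression-labelled library 1 (left) and library 2 (right), 1 point per gene. Red points are called higher, blue points lower and grey points not called: 16 and 19 genes are called in library 1 and 1 and 1 in library 2.

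The genes whose values over the 4 libraries lay nearest to each member were found by the Euclidean distance between values centred on their mean. Nearest to Notch2 were Tnfrsf8 at 0.0644 log2 units, Atp2a3 at 0.0674 and Armcx2 at 0.0955. Those nearest to Dtx1 were Sema7a at 0.165, Myof at 0.212 and the MHC class II chaperone gene H2-DMb1 at 0.256. Nearest to Hes1 were Snora21 at 0.0543, Arhgap27os3 at 0.0983 and Smox at 0.115, and nearest to Rbpj were Spsb3 at 0.0454, Map4k5 at 0.0674 and Epb4.1l4aos at 0.0757. Adam10 had the closest match, the DNA repair gene Brca2 at 0.00677, followed by Xrcc1, another DNA repair gene, at 0.0144 and the telomere gene Ctc1 at 0.047. Maml3, low in overexpression-labelled library 2, had the most distant neighbours: 1700042O10Rik at 0.267, the calcium channel gene Ryr2 at 0.343 and Gprin3 at 0.376. With 4 libraries, 1 of which stands apart, such nearness describes these libraries and nothing more.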

How the data were processed

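Libraries were grouped by genotype label; 1 column header differs in 1 digit from its sample title and was read as a typing slip. The authors' tools were STAR, HTSeq and DESeq2 and the build mm10, per the submitters' processing notes; versions, settings, strand and annotation are not given in the sources used here. The authors deposited log2 values with a shared floor of 4.949, in the form of a variance stabilizing transformation. Undoing it gave normalised reads, and with a size factor per library 100% of 97644 values came out as whole reads within 0.01. CPM and RPKM come from these reads.

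Deposited values were tested with limma-trend, two-sided (R 4.3.3, limma 3.58.1), with Benjamini-Hochberg adjustment over 12617 genes (a minimum of 15 reads over the 4 libraries, and, in 2 or more of them, of 10 reads scaled to the median total). All 9 members passed that filter. On this scale the change of genes with few reads is understated. No covariate was used, since the labels give no batch. Intervals are for differences, at 95%. Alternatives were other filters, limma-voom, a pseudocount of 0.5, library totals without Rn45s (with the same pseudocount), a robust prior and leaving out each library. The members and lists were chosen with earlier results of these data known. All 9 members were named, with up to 3 rises and 3 falls of the wider list for each overexpression-labelled library and the 3 nearest genes of each member spanning over 1 log2 unit; other genes of the wider list and markers were chosen after their values were seen.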

Additional observations from a re-analysis of the deposited data

Results flagged for a closer look

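The 2 libraries labelled Arid5b overexpression differed from each other in 7 of the 9 members, by a direct limma test of library 1 minus library 2. The log2 differences were -3.56 for Notch2, -1.11 for Rbpj, -0.98 for Maml2, 2.83 for Maml3, -2.15 for Hes1, -5.74 for Dtx1 and 1.17 for Adam10. The spread in that test is that of the wildtype libraries, and 52.6% of all genes passed it. In Maml3 each library also differed from wildtype, in opposite directions (0.92 and -1.91).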

How the results depend on the processing

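With no filter on low counts, 0 genes were called in either single library against wildtype by limma, with 8162 and 2266 genes at an unadjusted p under 0.05 for libraries 1 and 2; library 1 against library 2 then gave 2486 genes, and of the members Notch2 and Dtx1 stayed called there. Without the filter the smallest adjusted p of a member in library 1 against wildtype was 0.0543, and the cause was not tested. The count in library 2 against wildtype, 209, became 614 by limma-voom, 56 with log2 of normalised reads plus 0.5 and 0 with library totals without Rn45s. Leaving out 1 library at a time gave 0 to 7721 genes for the 2 groups, 0 without wildtype library 1, 1 without wildtype library 2, 209 without overexpression-labelled library 1 and 7721 without overexpression-labelled library 2. Over these 4 fits the differences ran from -3.54 to 0.0204 for Notch2, -0.81 to 0.17 for Maml2, -1.91 to 0.92 for Maml3, -1.89 to 0.26 for Hes1 and -5.46 to 0.28 for Dtx1. The other members kept their direction. In the other alternatives no member changed direction, and calls of members changed only for Notch1 and Maml3 with library totals without Rn45s. Leaving out a wildtype library in a comparison of a single library leaves no spread to test against, so it was not run. No paired analysis was possible because the labels give no replicate numbers. The depth of Dtx1 and Hes1 in library 1, 19 and 31 reads, limits how exactly their folds are known.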
